A study of Mus musculus with 15 samples.

Results

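Glycolysis was followed through 10 genes, 9 for enzymes of the path from glucose to lactate and 1 for a glucose transporter, in CD8+ T cells taken from mouse tumours. The genes were taken by name, with no threshold on a measured value, but with earlier results of these data known. All 10 were listed in all 15 libraries, out of 21788 genes listed once in any library. Slc2a1 encodes the transporter GLUT1, Hk2 hexokinase 2, Aldoa aldolase A, Tpi1 triosephosphate isomerase, Gapdh glyceraldehyde-3-phosphate dehydrogenase, Pgk1 phosphoglycerate kinase 1, Pgam1 phosphoglycerate mutase 1, Eno1 enolase 1, Pkm the muscle-type pyruvate kinase and Ldha lactate dehydrogenase A.

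Glycolysis splits glucose into pyruvate in the cytosol. Lactate dehydrogenase then turns pyruvate into lactate and renews the NAD+ that the Gapdh step uses. Activated CD8+ T cells take up more glucose and raise these enzymes under the transcription factors Myc and HIF-1, and inhibitory receptors such as PD-1 are known to lower glucose use. B7S1, encoded by Vtcn1, belongs to the B7 family of ligands and holds T cells back through a receptor called B7S1R.

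The tumours were E.G7, an ovalbumin-making (OVA) lymphoma line derived from EL4, grown under the skin of female C57BL/6 mice that were 6 to 8 weeks old at injection and 9 to 11 weeks old by the labels' age field. Cells were sorted on day 21. The groups were as follows. A bulk library labelled B7S1 KO and a bulk wild-type library held OVA-specific CD8+ T cells from 6 mice in each group. Sorting of PD-1+ CD8+ cells gave the populations B7S1R_SP (B7S1R without Tim-3), TIM-3_SP (Tim-3 without B7S1R) and DN (neither), each with 1 library labelled KO and 2 wild-type libraries, numbered 1 and 2. Wild-type mice gave 4 further libraries, titled anti_B7S1, combo, anti_PD1 and Control. No dose, schedule or sorted population was stated for these 4, and combo was read as both antibodies together, which the label does not spell out.

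Levels are RPKM in the bulk pair and FPKM in the other libraries, which count reads or fragments relative to transcript length and to the library's mapped total. The labels state total reads for none of the libraries, so no counting interval is given. Nothing states that replicates came from separate animals or cultures, and the p-values below measure only the spread between these libraries. Vtcn1 went against the labels. It stood at 9.46 RPKM in the bulk library labelled KO and 0.0687 RPKM in bulk wild type, and at 0.16, 2.5 and 1.02 FPKM in the B7S1R_SP, TIM-3_SP and DN libraries labelled KO, against 0 in all 3 wild-type libraries numbered 2. The labels do not say which part of the gene was deleted, so every direction between genotypes rests on the label alone. All 9 CD8 T cell markers, Cd3e and Cd8a among them, stood at 1 or more in every library, a level that a mixture with other cells also reaches.

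Sequence upstream of the members is shown to set a feature that uses no expression value beside the levels. ACGTG holds the core letters of the site bound by HIF-1, and CACGTG, which contains ACGTG, is the E-box bound by Myc. Windows of 250 bases before each annotated start were searched on both strands, in RefSeq promoters of build GRCm38.p6. ACGTG was found in 8 of the members' 16 windows, against 16.6% of all 32851 windows. The 8 windows belong to 7 of the 10 genes. Windows of a gene can overlap, and those of Aldoa starts 2 and 3 hold the same site. CACGTG was found in 1 of the members' 16 windows, that of Ldha start 1, against 6.02% of all windows, a similar share. The 6 windows below run 5′ to 3′ on the gene's strand up to the base before the start, with ACGTG in capitals on whichever strand it lies.
Ldha, start 1, chr7:46845554-46845803, plus strand: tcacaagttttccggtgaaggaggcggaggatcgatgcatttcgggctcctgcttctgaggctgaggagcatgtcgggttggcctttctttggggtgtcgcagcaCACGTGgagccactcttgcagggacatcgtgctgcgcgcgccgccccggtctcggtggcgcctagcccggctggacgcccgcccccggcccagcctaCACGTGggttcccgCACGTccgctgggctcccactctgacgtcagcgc
Pgk1, chrX:106186850-106187099, plus strand: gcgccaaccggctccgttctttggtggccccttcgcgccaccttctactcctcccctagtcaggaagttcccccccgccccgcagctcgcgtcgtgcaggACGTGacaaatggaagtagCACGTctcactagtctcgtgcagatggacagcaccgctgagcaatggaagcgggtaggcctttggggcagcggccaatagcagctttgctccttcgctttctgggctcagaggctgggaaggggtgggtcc
Hk2, chr6:82774455-82774704, minus strand: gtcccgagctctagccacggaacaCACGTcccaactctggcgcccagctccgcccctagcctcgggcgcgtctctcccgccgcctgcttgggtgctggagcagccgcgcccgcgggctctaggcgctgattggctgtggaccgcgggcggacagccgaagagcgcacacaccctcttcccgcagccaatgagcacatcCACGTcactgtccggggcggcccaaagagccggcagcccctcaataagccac
Pgam1, chr19:41911621-41911870, plus strand: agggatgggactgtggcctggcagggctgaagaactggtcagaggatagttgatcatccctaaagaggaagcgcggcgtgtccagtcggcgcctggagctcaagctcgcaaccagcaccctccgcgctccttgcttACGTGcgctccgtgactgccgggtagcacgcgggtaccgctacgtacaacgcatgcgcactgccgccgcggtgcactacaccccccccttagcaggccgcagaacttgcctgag
Aldoa, start 2, chr7:126799255-126799504, minus strand: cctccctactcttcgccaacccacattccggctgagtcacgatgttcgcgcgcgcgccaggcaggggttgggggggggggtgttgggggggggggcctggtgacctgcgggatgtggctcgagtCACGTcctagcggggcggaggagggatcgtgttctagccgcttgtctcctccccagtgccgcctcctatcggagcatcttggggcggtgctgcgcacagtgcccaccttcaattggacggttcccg
Gapdh, chr6:125165774-125166023, minus strand: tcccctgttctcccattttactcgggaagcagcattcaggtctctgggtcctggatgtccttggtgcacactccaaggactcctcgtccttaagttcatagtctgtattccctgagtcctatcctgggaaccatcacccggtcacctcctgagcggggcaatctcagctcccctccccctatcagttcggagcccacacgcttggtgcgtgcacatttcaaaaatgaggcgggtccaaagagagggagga
The Ldha window held the motif in 3 places, those of Pgk1 and Hk2 in 2 each, and those of Pgam1 and Aldoa in 1 each. Gapdh, the most abundant member, had none in this window. A match is a string of letters and not a measured binding site.

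Gapdh, the enzyme that makes NADH from glyceraldehyde 3-phosphate, was the highest of the 10 in all 13 FPKM libraries, and Hk2 and Slc2a1 filled the last 2 places in each of them. In mm10 the gene bodies lie on chromosome 7 (Aldoa at 126795234-126800751 and Ldha at 46841475-46855627), chromosome 4 (Eno1 at 150236721-150248879 and Slc2a1 at 119108711-119137983), chromosome 6 (Gapdh at 125161715-125166467, Hk2 at 82725025-82774454 and Tpi1 at 124810586-124814296), chromosome 19 (Pgam1 at 41911923-41918660), chromosome X (Pgk1 at 106187100-106203699) and chromosome 9 (Pkm at 59656368-59679375). Copies were taken as other annotated genes that align at 90% identity or more to at least 50% of the member's longest coding transcript. Gapdh has 142 of them, 133 of which are pseudogenes, so its reads could be split in counting. The highest listed copy of Gapdh reached 9.63 FPKM. Eno1 and Ldha each have 6 such copies, Pkm 4, and Aldoa and Pgk1 2 each, while Tpi1, Hk2, Slc2a1 and Pgam1 have 0.

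The members differed widely in how much they varied over the 9 sorted libraries. The highest library stood above the lowest by 26.5-fold for Slc2a1, 24.6-fold for Pkm and 10.5-fold for Eno1, and by 6.68-fold for Hk2. For Aldoa, Gapdh, Tpi1, Pgam1, Ldha and Pgk1 this ratio lay between 2.67 and 4.60. A single library, B7S1R_SP of wild type numbered 1, was the highest for Slc2a1, Pkm and Eno1. It was also the highest for Gapdh, Ldha, Tpi1 and Pgam1, and the lowest for Hk2. Without it these ratios were 17.6 for Slc2a1, 7.32 for Pkm and 4.43 for Eno1, with 3.11 for Hk2 and 2.34 to 4.60 for Aldoa, Gapdh, Tpi1, Pgam1, Ldha and Pgk1.

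**Figure D1:**
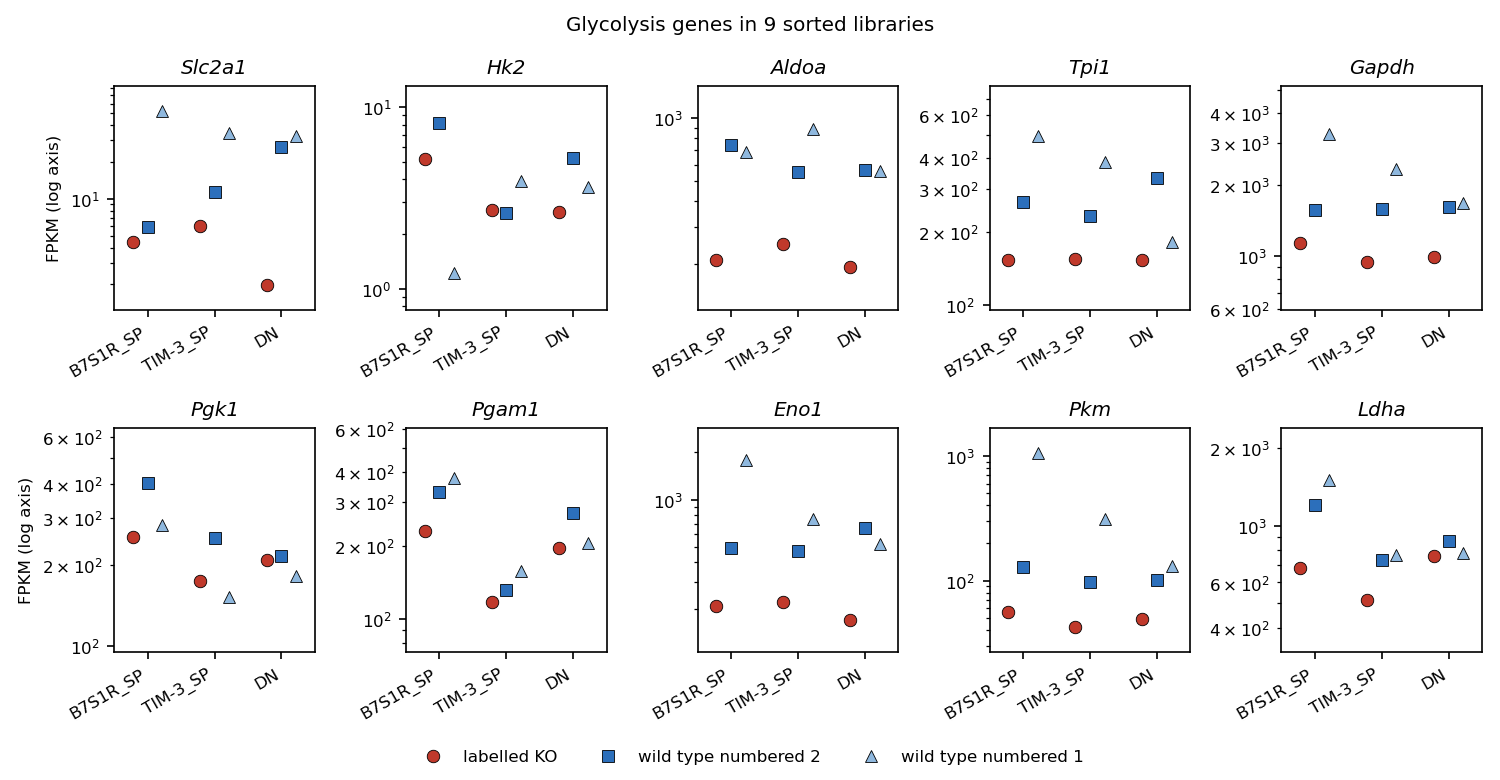
Level of each gene in FPKM (log axis) in the 9 sorted libraries, 1 point a library, by population, with red circles for libraries labelled KO, dark blue squares for wild type numbered 2 and light blue triangles for wild type numbered 1. Every red point lies below every blue point of the same gene, across populations, for Aldoa, Eno1, Pkm, Tpi1 and Gapdh. The Pkm and Eno1 triangles of B7S1R_SP stand far above the rest.

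Libraries labelled KO were first set against the wild-type libraries numbered 2, whose table lists the same genes. The libraries labelled KO are 1 set and wild type numbered 2 is another, so genotype cannot be told apart from set. The 3 populations serve as the 3 pairs. Libraries of a set deviate together (r of 0.409, 0.272 and 0.197 in wild type), so the SE and p-values below leave out the spread between sets. They come from a fit to all 9 sorted libraries, so the scatter of wild type numbered 1 enters them as well. Most of the 10 genes stood lower in the libraries labelled KO, in each sorted population. For 9 of the 10 genes the library labelled KO was below its wild-type partner in all 3 populations, as it was for 23.4% of the 10178 genes tested. Aldoa, Eno1, Slc2a1 and Pkm differed most, by more than 1 on the log2 scale. None of the 10 passed at an adjusted p of 0.05 (limma on log2(FPKM + 1), Benjamini-Hochberg over all genes tested), where 1 gene in all, the haemoglobin gene Hba-a2, did so (0.00983% of genes). At an unadjusted p under 0.05 there were 3 members and 670 genes. In pools of cells such as these, fewer cells of a type and less RNA per cell cannot be told apart.

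At the entry to the pathway, Slc2a1, which carries glucose across the plasma membrane, had 4.40, 6.05 and 1.97 FPKM in the B7S1R_SP, TIM-3_SP and DN libraries labelled KO, against 5.85, 11.3 and 26.5 FPKM in wild type numbered 2. The DN pair set most of this difference, and the groups overlapped. The log2 difference was -1.45 ± 0.62 (SE, 3 pairs; limma adjusted p = 0.755), and without the wild-type DN library numbered 2 it was -0.69. Hk2, which traps glucose in the cell as glucose 6-phosphate, stood at 5.19, 2.72 and 2.66 FPKM in the B7S1R_SP, TIM-3_SP and DN libraries labelled KO and at 8.15, 2.62 and 5.24 FPKM in wild type numbered 2. It was the 1 member that was not lower in all 3 pairs, with a difference of -0.43 ± 0.54 (SE; limma adjusted p = 0.902).

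Aldoa cleaves fructose 1,6-bisphosphate into the pair of three-carbon sugars. It stood at 211, 250.4 and 193 FPKM in the B7S1R_SP, TIM-3_SP and DN libraries labelled KO, against 741, 550.1 and 568 FPKM in wild type numbered 2. The 3 libraries labelled KO lay below all 6 wild-type libraries, as for 6.42% of genes tested, with the lowest library numbered 1 at 558 FPKM. The difference of -1.50 ± 0.41 (SE; 95% interval -2.43 to -0.57) had an unadjusted p of 0.0054 and a limma adjusted p of 0.755, and it was lower in 3 of 3 pairs. Tpi1, which interconverts the three-carbon sugars, had 153, 154 and 153 FPKM in the B7S1R_SP, TIM-3_SP and DN libraries labelled KO, against 265, 233 and 334 FPKM in wild type numbered 2. The 3 values labelled KO were nearly equal while the wild-type values spread, and the difference was -0.83 ± 0.48 (SE; limma adjusted p = 0.785).

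Gapdh had 1139.5, 946 and 988 FPKM in the B7S1R_SP, TIM-3_SP and DN libraries labelled KO, against 1560.2, 1582 and 1606 FPKM in wild type numbered 2. Gapdh differed by -0.63 ± 0.41 (SE, limma adjusted p = 0.807). Pgk1, the first ATP-making step, and Pgam1, which moves the phosphate of 3-phosphoglycerate, differed least among the enzymes below Gapdh, by -0.42 ± 0.40 and -0.39 ± 0.41 (SE; limma adjusted p = 0.873 and 0.885). Pgk1 had 253, 175 and 208 FPKM in the B7S1R_SP, TIM-3_SP and DN libraries labelled KO, against 404, 253 and 215 FPKM in wild type numbered 2, so its groups overlapped.

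Eno1, which makes phosphoenolpyruvate, stood at 209.8, 223 and 170.1 FPKM in the B7S1R_SP, TIM-3_SP and DN libraries labelled KO, against 489.5, 473 and 657 FPKM in wild type numbered 2. Eno1 differed by -1.42 ± 0.51 (SE, limma adjusted p = 0.755). Pkm, which makes pyruvate and ATP, had 56.2, 42.6 and 48.8 FPKM in the B7S1R_SP, TIM-3_SP and DN libraries labelled KO, against 128, 96.9 and 101 FPKM in wild type numbered 2. Its 3 pair differences, -1.17, -1.17 and -1.04 in B7S1R_SP, TIM-3_SP and DN, were nearly the same, and the estimate was -1.13 ± 0.58 (SE; limma adjusted p = 0.766). Ldha had 686, 514 and 761 FPKM in the B7S1R_SP, TIM-3_SP and DN libraries labelled KO, against 1204, 734 and 869 FPKM in wild type numbered 2, and the groups overlapped, with a difference of -0.51 ± 0.42 (SE; limma adjusted p = 0.861).

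**Figure D2:**
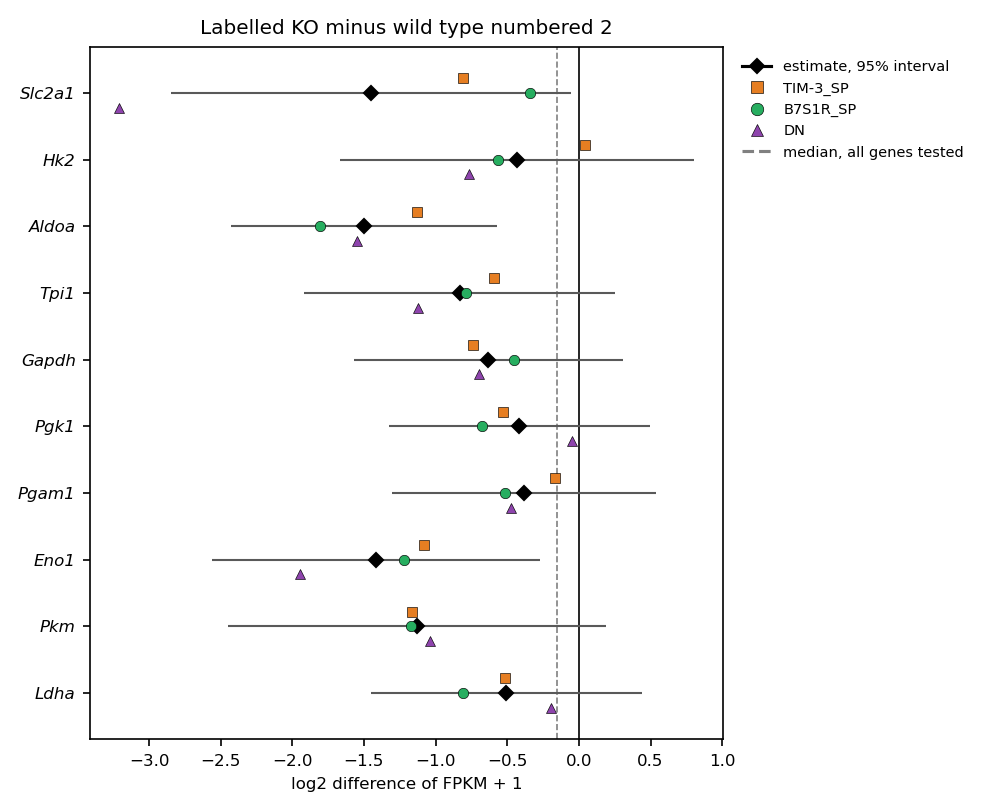
Difference of log2(FPKM + 1) between the library labelled KO and the wild-type library numbered 2 for each gene, with coloured points for the 3 populations, black diamonds and lines for the limma estimate and its 95% interval, and a dashed line at the median of all genes tested. All diamonds lie left of 0, and the intervals of Aldoa, Eno1 and Slc2a1 do not reach it.

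The median difference of the 10 members was -0.73 on the log2 scale, against -0.15 over all genes tested. Over the 551 tested genes that averaged 218 FPKM or more it was 0.35, with 31.2% of them lower in the libraries labelled KO. In 5 members, Aldoa, Gapdh, Pkm, Eno1 and Tpi1, the 3 libraries labelled KO lay below all 6 wild-type libraries, as they did for 6.42% of genes tested, although the wild-type libraries numbered 1 come from a table with another gene list. Scaling each library by its median ratio gave a median of -0.50 for the members and 0.02 for all genes. A test of whether the genotype difference varied between populations called 0 genes in each of its 3 contrasts (limma with no replicate block, smallest adjusted p = 1), with 38, 58 and 66 genes at an unadjusted p under 0.05. With the replicate block, which leaves 2 residual degrees of freedom, it also called 0, with 98, 99 and 116 genes at an unadjusted p under 0.05 and 0 members among them.

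Other transcripts moved with the same contrast. The 5 erythroid genes, haemoglobins and Alas2, summed to 4.75, 11.1 and 142 FPKM in the B7S1R_SP, TIM-3_SP and DN libraries labelled KO, against 11149.6, 95218 and 66197 FPKM in wild type numbered 2. FPKM is a share of the library, so the fit was repeated with these genes removed and each library rescaled, which gave a member median of -0.83 against -0.22 for all genes. The 9 CD8 T cell markers were also all on the lower side, with a median of -0.73 and 0 of 9 passing, the same median as the glycolysis genes. Their sums were 2164, 6726 and 3485 FPKM in the B7S1R_SP, TIM-3_SP and DN libraries labelled KO, against 2394, 9057 and 6264 FPKM in wild type numbered 2. The 20 myeloid markers summed to 8898, 476 and 479 FPKM in the same 3 libraries labelled KO, against 912, 393 and 494 FPKM in wild type numbered 2. The part of the T cell and myeloid transcripts in the glycolysis difference was not tested.

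**Figure D3:**
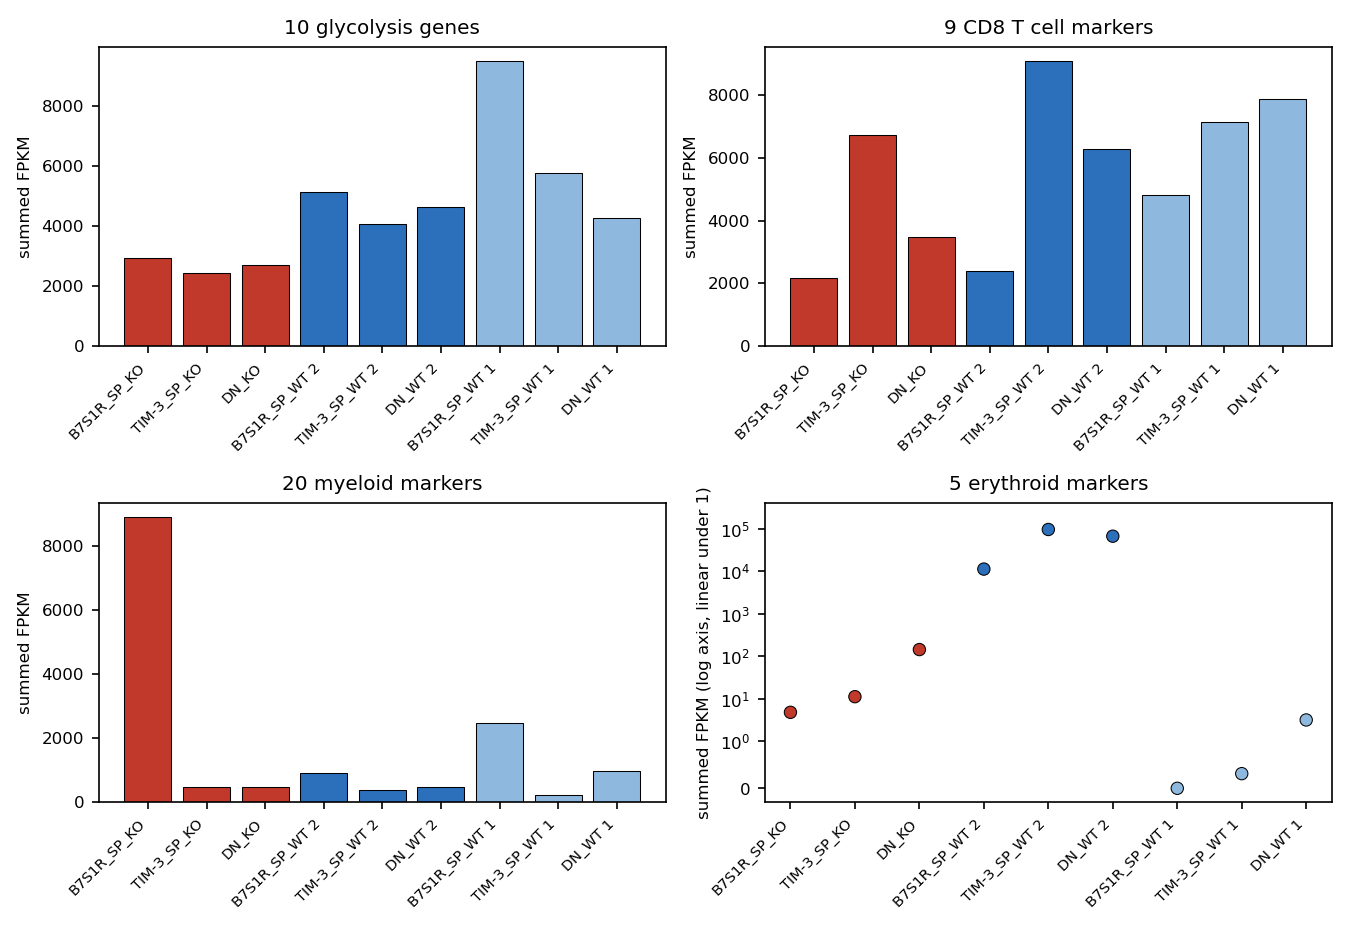
Summed FPKM of the 10 glycolysis genes, 9 CD8 T cell markers, 20 myeloid markers and 5 erythroid markers in the 9 sorted libraries (erythroid axis logarithmic, linear under 1), with red for libraries labelled KO, dark blue for wild type numbered 2 and light blue for wild type numbered 1, whose table lists 17 of the myeloid and 2 of the erythroid markers. The glycolysis sums run from 2430.3 to 2948 FPKM in libraries labelled KO and from 4067 to 9491 FPKM in wild type, and myeloid markers are highest in B7S1R_SP labelled KO.

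Genes around the members were read from 8 lists of related genes. Of the 24 other glycolysis and glucose-entry genes, 16 were tested between genotypes, 13 were on the lower side (60.3% of all genes tested) and 0 passed, with a median of -0.69. The transporter gene Slc2a6 differed by -1.48 ± 0.77, Bpgm, which makes 2,3-bisphosphoglycerate, by -1.04 ± 0.89, Hk1, a widely expressed hexokinase, by -0.81 ± 0.64, Pfkl and Pfkp, subunits of phosphofructokinase, by -0.81 ± 0.85 and -0.72 ± 0.49, and Gpi1, glucose-6-phosphate isomerase, by -0.50 ± 0.54 (SE). Slc2a3, the high-affinity transporter GLUT3, was higher in all 3 libraries labelled KO, by 0.38 ± 0.55. Bsg, the chaperone that brings lactate transporters to the membrane, was lower in all 3, by -0.97 ± 0.40 (limma adjusted p = 0.755). In the same list Slc16a1, a lactate and pyruvate transporter, differed by 0.98 ± 0.53, the mitochondrial pyruvate carrier subunit Mpc1 by 0.86 ± 0.42, higher in all 3, and Ldhb, the other main lactate dehydrogenase subunit, by -0.80 ± 0.45 (SE).

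The remaining lists lay nearer to all genes or on the other side. Median differences were -0.26 for 13 lactate and pyruvate genes, -0.26 for 5 genes of fructose 2,6-bisphosphate control, -0.31 for 11 regulators, -0.30 for 17 HIF targets outside glycolysis, -0.18 for 7 pentose phosphate genes and -0.30 for 17 genes of the tricarboxylic acid cycle, with 0 genes passing in any of them. Myc differed by -1.08 ± 0.54, Txnip, a brake on glucose uptake, by -1.01 ± 0.47 and Hif1a by -0.33 ± 0.66 (SE). Among single genes, Pdk1, which inhibits pyruvate dehydrogenase, differed by 0.33 ± 0.40, the lactate exporter Slc16a3 by 0.30 ± 0.59 and the HIF target Bnip3 by -0.55 ± 0.72. The 18 cell cycle genes had a median of 0.50, with 16 on the higher side (39.7% of all genes tested) and 0 passing.

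Between the sorted populations 0 members passed in any of the 3 comparisons. In B7S1R_SP against TIM-3_SP the member median was 0.36, beside 0.18 for all genes, and 8 of the 10 lay on the higher side (59.6% of all genes). Without the B7S1R_SP library of wild type numbered 1 the median was 0.10, beside 0.12 for all genes. Ldha, Pgk1, Pkm and Pgam1 were higher in B7S1R_SP in all 3 sets of libraries, which held for 24.7% of genes. None of the 10 passed, where 42 genes did (0.413%).

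Pgam1 showed the most even difference between these populations. It had 377, 329.8 and 229.9 FPKM in the B7S1R_SP libraries of wild type numbered 1, wild type numbered 2 and the KO label, against 158, 132 and 117 FPKM in TIM-3_SP. The groups did not overlap, and the difference was 1.18 ± 0.41 (SE, 3 sets; 95% interval 0.26 to 2.10; unadjusted p = 0.018, limma adjusted p = 0.234). Pgk1 stood at 283, 404 and 253 FPKM in the B7S1R_SP libraries in the same order of sets, against 151, 253 and 175 FPKM in the TIM-3_SP ones, a difference of 0.70 ± 0.40 (SE; limma adjusted p = 0.466). The lowest B7S1R_SP library was level with the highest TIM-3_SP library to the whole FPKM.

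Ldha had 1501, 1204 and 686 FPKM in the B7S1R_SP libraries of wild type numbered 1, wild type numbered 2 and the KO label, against 767, 734 and 514 FPKM in TIM-3_SP. Its groups overlapped, since the B7S1R_SP library labelled KO lay below both wild-type TIM-3_SP libraries, and the difference was 0.70 ± 0.42 (SE; limma adjusted p = 0.484). Pkm had 1046, 128 and 56.2 FPKM in the B7S1R_SP libraries, against 312, 96.9 and 42.6 FPKM in the TIM-3_SP ones. A single library, B7S1R_SP of wild type numbered 1, was far above the other 8, and the difference of 0.84 ± 0.58 (SE; limma adjusted p = 0.551) was 0.17 without it. Aldoa and Slc2a1 were on the other side, at -0.06 ± 0.41 and -0.22 ± 0.62, and Eno1, Hk2, Gapdh and Tpi1 differed by 0.40, 0.31, 0.24 and 0.18.

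Against DN, B7S1R_SP gave a member median of 0.40, beside 0.01 for all genes, and 0.20 without the DN library of wild type numbered 1, beside -0.08 for all genes. Aldoa, Pgk1, Pkm and Pgam1 were higher in B7S1R_SP in all 3 sets (15.8% of genes), and 0 of 10 members and 0 of all genes passed (0.0%), with 0 members and 678 genes at an unadjusted p under 0.05 by limma. Pkm differed by 1.18 ± 0.58 (SE; limma adjusted p = 0.753). DN itself held 130.3, 101 and 48.8 FPKM of Pkm in wild type numbered 1, wild type numbered 2 and the KO label, so that only the sets numbered 1 lay far apart. Pgk1, Eno1, Pgam1, Ldha, Gapdh, Tpi1, Aldoa, Hk2 and Slc2a1 differed by 0.61, 0.55, 0.46, 0.42, 0.37, 0.37, 0.27, 0.08 and -0.16. Without the B7S1R_SP library of wild type numbered 1, Eno1 differed by 0.03.

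In TIM-3_SP against DN the member median was 0.10, beside -0.14 for all genes. It was -0.20 without the DN library of wild type numbered 1 and 0.33 without the DN library of wild type numbered 2, so its sign rests on single libraries. Of the 10 members 0 passed and 6 genes did (0.059%). Pgam1 and Ldha were lower in TIM-3_SP in all 3 sets (19.7% of genes), by -0.71 ± 0.41 (SE; limma adjusted p = 0.668) and -0.28 ± 0.42. Pgam1 had 158, 132 and 117 FPKM in TIM-3_SP, against 204, 273 and 196 FPKM in DN. The other members differed by between -0.23 for Hk2 and 0.33 for Aldoa and Pkm.

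**Figure D4:**
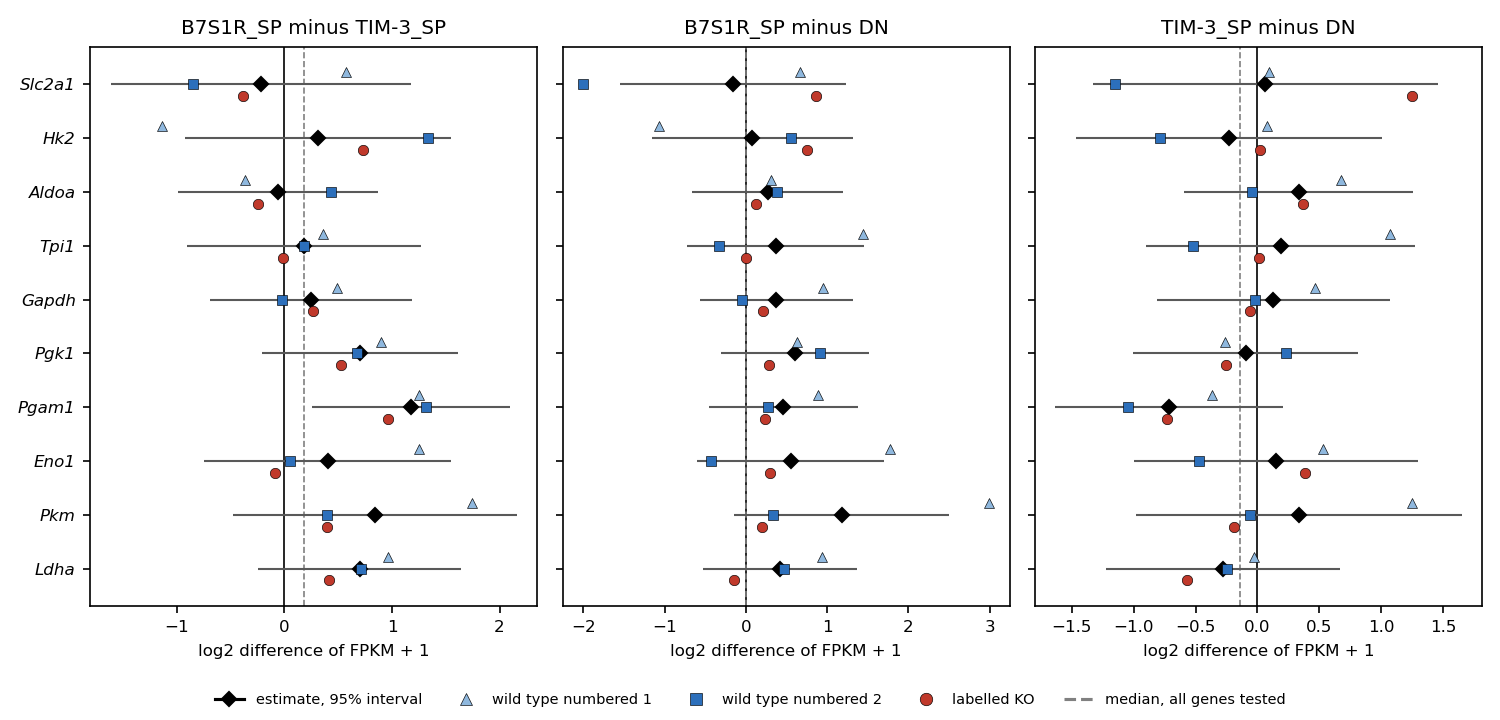
Difference of log2(FPKM + 1) between populations for each gene in 3 panels, with coloured points for the 3 sets of libraries, black diamonds and lines for the limma estimate and its 95% interval, and a dashed line at the median of all genes tested. Pgam1 is the 1 gene shown whose interval leaves 0 out, at 0.26 to 2.10 between B7S1R_SP and TIM-3_SP. In that comparison 1516 of all 10178 genes tested had an unadjusted limma p under 0.05. The triangles of wild type numbered 1 lie at the far right for Pkm and Eno1.

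Markers of other cells moved with B7S1R_SP. All 15 myeloid markers tested were on the higher side against TIM-3_SP, with a median difference of 3.12, and 14 of 15 against DN, with a median of 2.63; 0 passed, with a smallest limma adjusted p of 0.0532 against TIM-3_SP. Sums were taken over all listed myeloid markers, 17 in wild type numbered 1 and 20 in the other sets. In B7S1R_SP they were 2485, 912 and 8898 FPKM in wild type numbered 1, wild type numbered 2 and the KO label. In the same order they were 219.9, 393 and 476 FPKM in TIM-3_SP and 968, 494 and 479 FPKM in DN. In B7S1R_SP labelled KO, myeloid markers ran from 0.48 FPKM of Itgax to 2439.6 FPKM of Lyz2, with Csf1r at 4.27 and Itgam at 3.05, and CD8 T cell markers from 19.4 FPKM of Cd247 to 974 FPKM of Cd3g. The 9 CD8 T cell markers were on the lower side in B7S1R_SP, by a median of -1.42 against TIM-3_SP and -1.11 against DN. The part of these cells in the glycolysis values was not tested.

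Of the other pathway genes 0 passed in B7S1R_SP against TIM-3_SP, where 59.6% of all genes tested lay on the higher side. Of 16 other glycolysis genes 11 did, a share near that of all genes, with a median of 0.39, and of 13 lactate and pyruvate genes 11, with a median of 0.40. Slc2a6 differed by 3.03 ± 0.77 (limma adjusted p = 0.133), Adpgk, an ADP-dependent glucokinase, by 1.51 ± 0.54, Pfkl by 1.35 ± 0.85, Gpi1 by 1.26 ± 0.54 and the pentose phosphate enzyme Tkt by 1.13 ± 0.45 (SE). Among the genes lower in all 3 sets were Ldhb, by -1.11 ± 0.45, and the HIF target Hilpda, by -2.35 ± 1.14. The Hilpda difference was largest in wild type numbered 1, at 0.32 FPKM in B7S1R_SP against 64.7 FPKM in TIM-3_SP. So were 3 genes below 5 FPKM on average lower in all 3 sets, Pdp1, Epas1 and Slc2a8. Pdp1, a pyruvate dehydrogenase phosphatase subunit, differed by -1.32 ± 0.58. The HIF family member Epas1 differed by -1.09 ± 0.48 and the transporter gene Slc2a8 by -0.96 ± 0.44. Slc16a1 differed by 1.94 ± 0.53 (limma adjusted p = 0.155) in B7S1R_SP against TIM-3_SP and by -1.79 ± 0.53 (adjusted p = 0.415) in TIM-3_SP against DN. HIF targets outside glycolysis had a median of 0.88 in B7S1R_SP against TIM-3_SP, with 13 of 17 on the higher side. In this list Plin2 differed by 2.21 ± 0.61 and Egln3 by 1.92 ± 0.80, both higher in all 3 sets, and Ankrd37 by -1.81 ± 0.99 (SE). Between TIM-3_SP and DN, 14 of 18 cell cycle genes were on the higher side in TIM-3_SP (40.2% of all genes) with a median of 0.78, and Myc differed by -1.28 ± 0.54.

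In the antibody libraries 7 of the 10 members were lower where the B7S1 antibody was named, while other genes of the pathway went both ways. There was 1 library per group, so these differences have no replicate check, and a gene was counted as changed at 2-fold or more with 5 FPKM or more in the higher library. The members together held 4704 FPKM in anti_B7S1 and 4399.7 FPKM in combo, against 8379.6 FPKM in anti_PD1 and 8990.1 FPKM in Control. For 7 of 10 members, both libraries with the B7S1 antibody lay below both libraries without it, as for 13.4% of genes at 5 FPKM or more and 15.9% of genes with a mean of 100 FPKM or more.

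Gapdh had 1656 FPKM in anti_B7S1 and 1539 FPKM in combo, against 3242 FPKM in anti_PD1 and 3488 FPKM in Control. Eno1 had 563 FPKM in anti_B7S1 and 685 FPKM in combo, against 1415 FPKM in anti_PD1 and 1232 FPKM in Control. Tpi1 had 207 FPKM in anti_B7S1 and 138 FPKM in combo, against 411 FPKM in anti_PD1 and 804 FPKM in Control. These 3 enzymes passed the 2-fold mark in both pairs that share no library, anti_B7S1 against Control and combo against anti_PD1, as did 8.99% of genes.

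Aldoa stood at 417 FPKM in anti_B7S1 and 386 FPKM in combo, against 846 FPKM in anti_PD1 and 663 FPKM in Control. Pkm stood at 458 FPKM in anti_B7S1 and 461 FPKM in combo, against 853 FPKM in anti_PD1 and 838 FPKM in Control. In both genes the libraries with the B7S1 antibody were nearly equal and the others stood well above. Slc2a1 had 96.5 FPKM in anti_B7S1 and 46.1 FPKM in combo, against 113 FPKM in anti_PD1 and 109 FPKM in Control, so that combo alone stood far off. Pgk1 had 297 FPKM in anti_B7S1 and 92.3 FPKM in combo, against 356 FPKM in anti_PD1 and 573 FPKM in Control.

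Pgam1, Hk2 and Ldha followed other orders. Pgam1 had 217 FPKM in anti_B7S1, 107 FPKM in combo and 199 FPKM in anti_PD1, against 518 FPKM in Control. Hk2 stood at 2.86 FPKM in anti_B7S1, 2.22 FPKM in combo and 0.30 FPKM in anti_PD1, against 22.1 FPKM in Control, so every treated library was low. Ldha was the steadiest, at 789 FPKM in anti_B7S1, 943 FPKM in combo, 944 FPKM in anti_PD1 and 744 FPKM in Control.

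**Figure D5:**
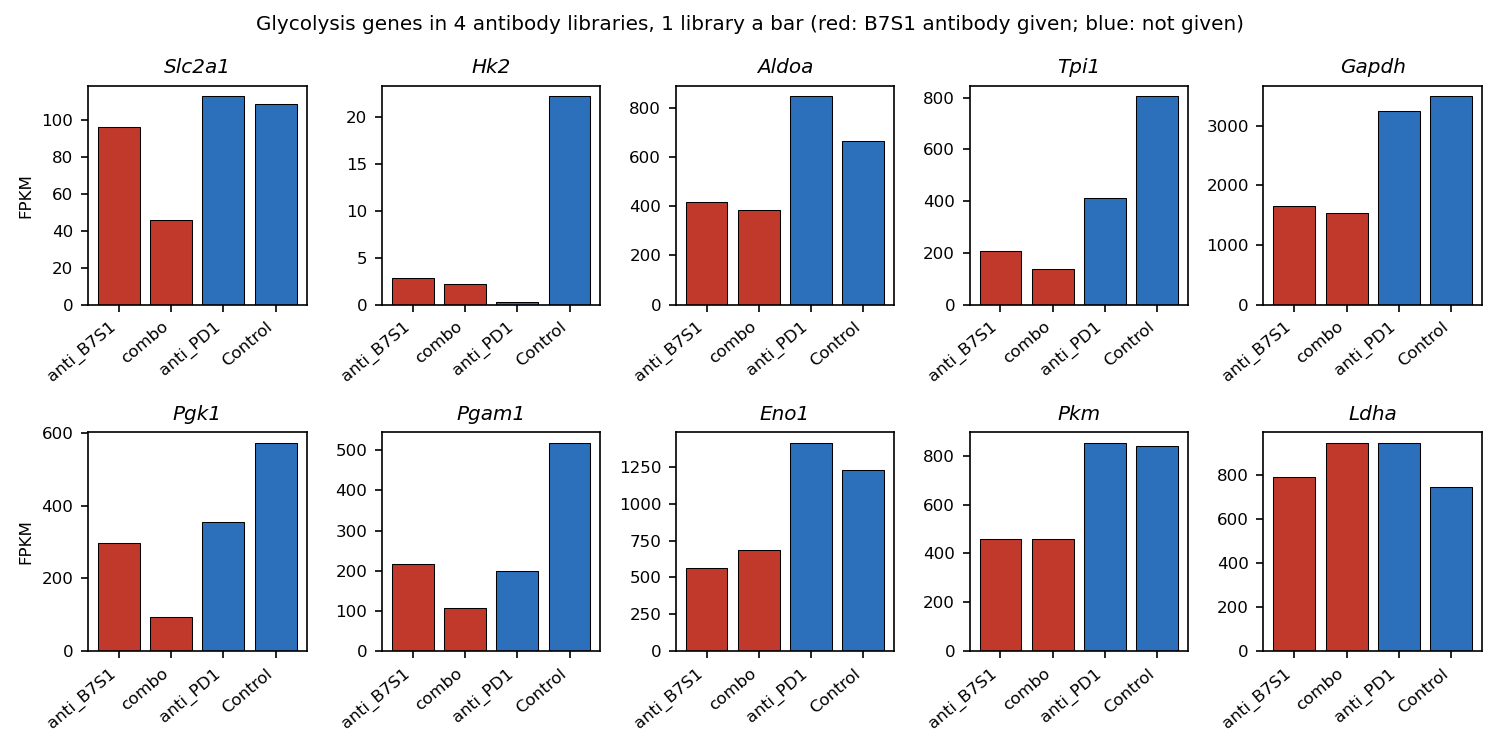
Level of each gene in FPKM (linear axes from 0) in the 4 antibody libraries, 1 library a bar, red where the title names the B7S1 antibody or the combination and blue elsewhere. Red bars are lower than both blue bars for 7 genes, Ldha is nearly level and Hk2 is high in Control alone.

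In anti_B7S1 against Control, 5 members were called lower (29.5% of 7083 genes at 5 FPKM or more) and 0 higher (38.3%): Gapdh, Eno1, Tpi1, Hk2 and Pgam1, with log2 ratios of -1.07, -1.13, -1.96, -2.95 and -1.26. The member median was -1.01, beside 0.03 for all genes. Scaling each library by its median ratio gave a median of -0.87 and left 3 members called lower, Tpi1, Hk2 and Pgam1, beside 27.6% of genes. In combo against anti_PD1, 6 of 9 members with a ratio were called lower (33.6%) and 0 higher (24.6%): Aldoa, Gapdh, Pgk1, Eno1, Tpi1 and Slc2a1. All 9 lay on the lower side, Ldha by no more than -0.0013, with a median of -1.08 beside 0.01 for all genes. Hk2, the member without a ratio, went the other way, at 2.22 FPKM in combo and 0.30 FPKM in anti_PD1. With a minimum of 1 FPKM it was called higher (23.5% of genes). Across both of these pairs 8 of 9 members were lower, against 24.1% of genes.

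The comparisons that follow share libraries with those above, and their values are set side by side. In combo against Control, 6 members were called lower (28.3%), with a median log2 ratio of -1.21. In anti_PD1 against Control, Hk2 and Pgam1 were called lower (24.4%) and the median was -0.04. In combo against anti_B7S1, Pgk1, Slc2a1 and Pgam1 were called lower (31.4%) and the median was -0.11. In the 2 disjoint pairs that differ by the PD-1 antibody, 4 of 9 members, Gapdh, Pgk1, Tpi1 and Pgam1, were lower in both (20.8% of genes) and 3, Ldha, Pkm and Eno1, were higher in both (31.4%).

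The other pathway genes gave no single direction in these libraries. Among the 12 other glycolysis genes at 5 FPKM or more, anti_B7S1 against Control had 5 called higher and 4 lower, and combo against anti_PD1 had 2 called higher and 4 lower. Slc2a3 had 22.8 FPKM in anti_B7S1, 70.4 FPKM in combo and 49.8 FPKM in anti_PD1, against 0.01 FPKM in Control. Hk1 had 20.4 FPKM in anti_B7S1 and 12.8 FPKM in each of combo and anti_PD1, against 64.8 FPKM in Control. Gpi1, at 192, 105 and 205 FPKM in anti_B7S1, combo and anti_PD1 and 139 FPKM in Control, and Pfkp, at 116, 34.2, 64.6 and 103 FPKM in the same order, were lowest in combo.

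Lactate export and the regulators differed from library to library. The exporter Slc16a3 had 32.8, 0.07 and 29.5 FPKM in anti_B7S1, combo and anti_PD1, against 3.70 FPKM in Control, and Bsg had 275, 279 and 325 FPKM, against 634 FPKM in Control. Pfkl had 40.1, 22.7 and 44.6 FPKM in anti_B7S1, combo and anti_PD1, against 22.8 FPKM in Control, and Pdk1 had 4.78, 13.1 and 0.57 FPKM, against 0.01 FPKM. Hif1a stood at 93.7, 158 and 135 FPKM in anti_B7S1, combo and anti_PD1, against 47.9 FPKM in Control, and Myc at 9.21, 41.0 and 17.0 FPKM, against 32.8 FPKM. Fam162a, a HIF target, had 128, 58.8 and 142 FPKM in anti_B7S1, combo and anti_PD1, against 601 FPKM in Control, while Bnip3 was listed at 0 in all but anti_PD1, at 27.2 FPKM. Of 18 cell cycle genes, 16 were called higher than Control in anti_PD1 (44.2% of genes) and 16 in combo (40.5%). The number of genes at 1 FPKM or more was 6972 in anti_B7S1, 6913 in combo, 8640 in anti_PD1 and 5752 in Control, so the libraries also differed in how many genes they detected, and the part of this in the ratios was not tested.

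The bulk pair of OVA-specific cells did not show the lower values seen in the sorted libraries labelled KO. The member median was -0.02 on the log2 scale and 1 of the 10, Hk2, was called lower (14.1%), at 7.02 RPKM in the bulk library labelled KO against 27.2 RPKM in bulk wild type, or 3.87-fold lower. Aldoa was at 84.0 RPKM against 50.6 RPKM and Tpi1 at 215 RPKM against 158 RPKM, in the order KO label and wild type, both on the higher side. Slc2a1 was at 17.1 RPKM in the library labelled KO and 23.3 RPKM in wild type.

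The remaining enzymes were close between the 2 bulk libraries. Gapdh had 944 RPKM in the library labelled KO and 1105 RPKM in wild type, Pgk1 383 and 380.3 RPKM, and Eno1 228 and 231 RPKM. Pgam1 had 143 RPKM in the library labelled KO and 154 RPKM in wild type, and Pkm 16.0 and 13.3 RPKM. Ldha was listed at 0.0999 RPKM in the library labelled KO and at 0.001 RPKM, the lowest value of the table, in wild type, so no ratio was taken; in the FPKM tables it was among the most abundant members. Around them calls went both ways, with 12.2% of genes called higher and 14.1% lower. Slc16a1 was called lower, at 7.49 RPKM in the library labelled KO against 20.04 RPKM in wild type, as were the HIF family member Epas1, at 2.88 against 22.3 RPKM, and Mtor, a growth-control kinase, at 2.36 against 5.37 RPKM. Ldhb was called higher, at 34.8 RPKM in the library labelled KO against 6.88 RPKM in wild type, as were Aldoc, aldolase C, at 10.1 against 3.23 RPKM, the pentose phosphate entry enzyme G6pdx at 14.4 against 4.85 RPKM, and Egln1, an oxygen-sensing hydroxylase, at 14.7 against 7.29 RPKM. Gpi1 had 109.8 and 76.9 RPKM, Slc2a3 40.9 and 33.0 RPKM, and Hif1a 75.5 and 67.7 RPKM in the library labelled KO and in wild type.

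The members' likeness to each other was read over the 9 sorted and 4 antibody libraries, as Pearson's r of log2(FPKM + 1) centred within each table. This is a description, since the libraries of a table share their processing and depth. Gapdh and Tpi1 followed the mean of the other members most closely, at r of 0.914 and 0.910, then Eno1 at 0.834, Pkm at 0.765, Pgam1 at 0.736, Aldoa at 0.720 and Pgk1 at 0.713. Slc2a1 at 0.592, Ldha at 0.463 and Hk2 at 0.233 followed it least. For a ranking of other genes, symbols of predicted genes, clones, pseudogenes, small RNAs and olfactory or vomeronasal receptors were left out by name. Among the 6635 genes kept, the most like the members' mean were Ube2j1 at 0.944, Sacm1l at 0.933, Bsg at 0.891 and Prrc2a at 0.878. Next came Hspa5 at 0.864, Il1r2 at 0.861, Fip1l1 at 0.845 and Wbp2 at 0.843. With the symbols left out above counted again, an r of 0.8 or more was reached by 0.308% of genes and 0.5 or more by 12.2%.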

How the data were processed

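RNA of sorted CD8+ T cells was sequenced in 15 libraries. The deposited bulk values are RPKM and the other deposited values are FPKM, per the file headers; the lowest entries are 0.001 RPKM and 0 FPKM. HISAT2, Bowtie2, RSEM and mm10 are named without versions in the submitters' processing notes, and filters and annotation are not given in the sources used here. No counts were used, so no count model was run.

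Groups came from titles, since strain and genotype entries count upward in some libraries. The files form 4 tables of 17205, 15627, 17605 and 14710 symbols; repeated symbols were dropped. Sorted libraries were compared with limma 3.58.1 in R 4.3.3 on log2(FPKM + 1) of the deposited values, over 10178 genes listed in all 9 and averaging 1 FPKM or more, with population and set of libraries as terms, 4 residual degrees of freedom, Benjamini-Hochberg adjustment and a threshold of 0.05. Libraries were grouped into sets by replicate number. Deviations of same-numbered wild-type libraries correlated at 0.409, 0.272 and 0.197, all over 0.1, so the set stayed a block. Wild-type libraries of a number also share a gene table, so this r cannot tell paired samples from a shift of the table. The check does not cover the libraries labelled KO. Pairs of single libraries had no test. Copies were found with blastn 2.17.0, and tables were handled in Python 3.11.15 with pandas 2.3.3. The fit was also run on simulated data, with independent noise in each library and no shift of the KO set beyond the planted changes. That run cannot show how far set and genotype mix in the real libraries.

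The members and all 8 lists of related genes were chosen with earlier results of these data known. Every member is named. Other names are genes that pass, up to 4 per list with the largest change, and a fixed set of regulators and enzymes; marker genes, Hba-a2, and Pdp1, Epas1, Slc2a8, Mtor, G6pdx and Egln1 were named after their values were seen. Alternatives were other pseudocounts, filters, scalings, fold and value minimums, no block, wild type only, absent genes as 0 and each library left out. Removal of erythroid genes, and the replicate block in the test of the genotype difference between populations, were added after seeing the data.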

Additional observations from a re-analysis of the deposited data

Results flagged for a closer look

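For 4 members the bulk pair went the opposite way to all 3 sorted pairs. The log2 ratio of the bulk library labelled KO to bulk wild type was 0.73 for Aldoa, 0.45 for Tpi1, 0.26 for Pkm and 0.0085 for Pgk1. In the sorted pairs of TIM-3_SP, B7S1R_SP and DN, the library labelled KO minus wild type numbered 2 gave -1.13, -1.81 and -1.55 for Aldoa and -0.59, -0.79 and -1.12 for Tpi1. Pkm gave -1.17, -1.17 and -1.04, and Pgk1 gave -0.53, -0.67 and -0.05. The bulk ratio of Pgk1 is close to 0. The difference between the bulk and sorted pairs was not tested, since the bulk pair has 1 library per group, another unit and another sort.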

How the results depend on the processing

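No member passed in any alternative of the sorted comparisons. Between genotypes all 10 members kept their direction under all 17 alternatives. Genes called numbered 42 in B7S1R_SP against TIM-3_SP, and 12 with no replicate block, 7 in wild type with the block and 0 without it, 2 at a pseudocount of 0.1, 129 at 5, 7 with no filter, 24 with absent genes as 0, 113 scaled and 1 to 35 with a library left out. TIM-3_SP against DN had 6, and 1 with no replicate block, 2 in wild type with the block and 0 without it, 1 at 0.1, 13 at 5, 0 with no filter, 2 with absent genes as 0, 13 scaled and 0 to 3 with a library left out. B7S1R_SP against DN had 0, 1 at 0.1 and 0 to 1 with a library left out. The genotype comparison had 1, Hba-a2, and 0 with no replicate block, at 0.1 or with no filter, 6 with absent genes as 0, 4 in its 6 libraries alone and 0 to 2 with a library left out. Without the erythroid genes it also had 0, but that fit leaves out Hba-a2 itself and so cannot check its call. Between TIM-3_SP and DN, Slc2a1 turned to -0.53 in wild type only and -0.065 at a pseudocount of 5, and Pgk1 to 0.072 when scaled. Hk2 turned to -0.26 in B7S1R_SP against DN in wild type, and in B7S1R_SP against TIM-3_SP Aldoa turned to 0.031 in wild type and Tpi1 to -0.022 when scaled. The causes were not tested. With a library left out, differences that turned in TIM-3_SP against DN ran from -0.10 to 0.27 for Gapdh, -0.25 to 0.027 for Pgk1, -0.35 to 0.71 for Pkm, -0.25 to 0.55 for Eno1, -0.30 to 0.54 for Tpi1, -0.67 to 0.17 for Hk2 and -0.49 to 0.83 for Slc2a1. In B7S1R_SP against DN they ran from -0.12 to 0.72 for Tpi1, -0.29 to 0.73 for Hk2 and -0.71 to 0.61 for Slc2a1, and in B7S1R_SP against TIM-3_SP from -0.28 to 0.10 for Aldoa, -0.11 to 0.74 for Eno1, -0.13 to 0.36 for Tpi1, -0.086 to 0.96 for Hk2 and -0.62 to 0.40 for Slc2a1. Among single libraries, in bulk KO against bulk WT a 1.5-fold mark called 2740 genes and a minimum of 1 RPKM 3232, against 1598, and the 1.5-fold mark 2 members, Aldoa higher (21.3% of genes) and Hk2 lower (23.8%), against 1. A 1.5-fold mark called 8 members lower in anti_B7S1 against Control (35.9% of genes), and scaling 3 (27.6%), against 5 (29.5%), and 4 in anti_PD1 against Control (30.6%), against 2 (24.4%). Total reads are not given, so low values such as those of Hk2 carry an unknown counting error.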
